A study of Rattus norvegicus with 4 samples.

Results

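The 112 longest well-covered stretches of the rat genome without a boundary in pooled Hi-C contacts of Schwann cells are described here. In Hi-C, neighbouring stretches of chromatin are ligated to each other inside fixed nuclei, and each sequenced junction counts as 1 contact between a pair of loci. The intervals were chosen by the contacts themselves, summed over all 4 libraries in bins of 10 kb. At each bin the mean count between the 20 bins to its left and the 20 bins to its right was divided by the mean of the chromosome, and the log2 of this ratio is the insulation score. A local minimum of the score with a prominence of at least 0.2 was a boundary. Where the window held no contacts, the bin took the lowest finite score of its chromosome, so a gap in coverage could also become a boundary. Of 10260 intervals between neighbouring boundaries on the 20 numbered chromosomes, 6840 had at least 90% of their bins at 0.25 or more of the median cis contacts (contacts within a chromosome). Among the covered intervals, 112 were 800 kb or longer, and they are called long domains below. Another 9 intervals of that length were too poorly covered. Of the 112 long domains, 7 (6.25%) had a boundary bin of low coverage, against 3.24% of the 4417 other intervals of 200 kb to under 800 kb.

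The cells were primary rat Schwann cells, the glia of peripheral nerve, isolated from sciatic nerve and grown with forskolin and heregulin-β1. Both groups had been infected for 48 h at 2 viral units per cell. Lenti-AS carried a lentivirus that overexpresses the antisense RNA of the Egr2 promoter, and Lenti-GFP carried a control virus with GFP. Infection was thus shared, but per the methods the antisense RNA was cloned into a DsRed vector and the control was an AcGFP1 plasmid, so that the reporter vector differed between the groups too. Each group held 2 libraries made with the Arima kit, which contained 94956821 and 110770015 contacts in Lenti-GFP and 74811640 and 70488877 in Lenti-AS. Both Lenti-AS libraries were thus shallower than both Lenti-GFP libraries. Nothing states that the libraries of a group came from separate animals, so each p-value measures only the spread between these libraries. Contacts carry no expression, and the cell type of the labels was not checked against markers.

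Chromosomes of mammals fold into domains, stretches in which loci touch each other more often than they touch loci outside. Boundaries between domains often hold sites of the factor CTCF, at which the ring complex cohesin is stopped while it extrudes a loop of DNA. Pairs of such sites can leave a spot of enriched contacts where the ends of a domain meet, at its corner on the contact map. On a larger scale, loci separate into compartments, one rich in active genes and the other in silent chromatin, and gene-poor silent chromatin can form long stretches with few boundaries. Compartments are read from the first eigenvector of the contact correlation matrix, whose sign is arbitrary until it is fixed by another measure.

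The long domains measured 800 to 1490 kb, with a median of 885 kb, against a median of 260 kb over all covered intervals. They covered 104.5 Mb, or 3.99% of the numbered chromosomes, and 27 of them reached 1000 kb. All 20 chromosomes held at least 1, from 1 on chromosomes 12 and 20 to 12 on chromosome 5. The longest was chr15:63150001-64640000 (1490 kb, build rn6, as are all positions here). It was followed by chr2:215010001-216330000 (1320 kb), chr1:268080001-269300000 (1220 kb) and chr13:6640001-7820000 (1180 kb), and then by 3 domains of 1170 kb on chromosomes 2, 3 and 16. Just inside the threshold lay 5 domains of exactly 800 kb, such as chr9:34300001-35100000. Just outside it lay 6 intervals of 790 kb, such as chr10:26630001-27420000. From 300 kb upward the counts per class of length fall up to 800 kb with no gap there, so the threshold cuts a continuous range. Genes inside the domains were not analysed here.

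**Figure D1:**
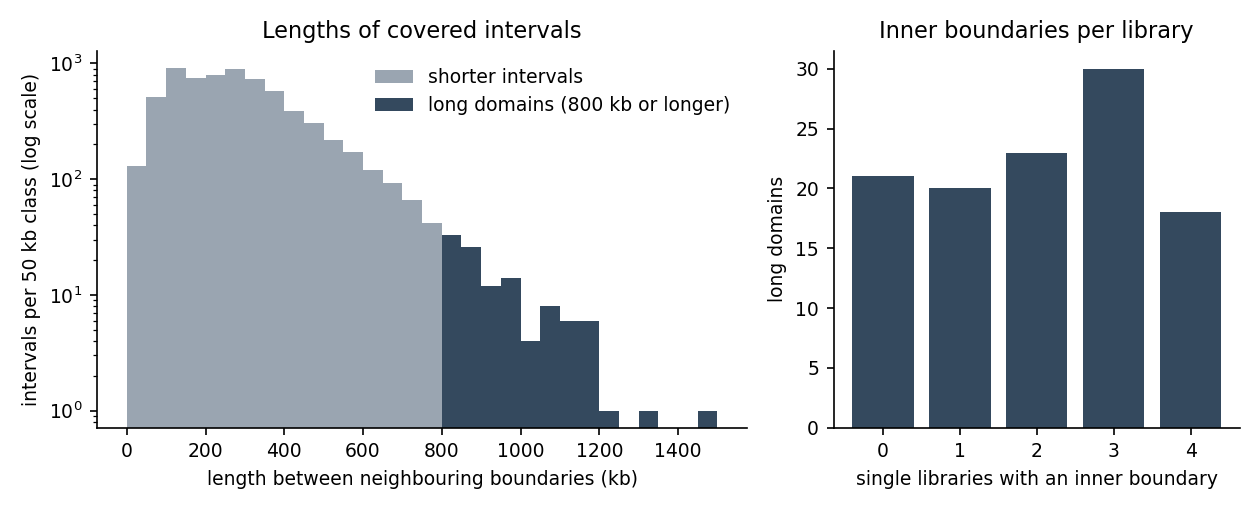
Left, number of covered intervals (log scale) in each 50 kb class of length (kb), with the 112 long domains in dark. Right, number of long domains by how many of the 4 single libraries placed a boundary inside them. The classes next to 800 kb hold 42 and 33 intervals, and 21 long domains have no inner boundary in any library.

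The absence of inner boundaries held for the pooled contacts and less often for single libraries. When the same score was computed in each library alone, a boundary at least 50 kb from both ends lay inside 57 and 50 of the 112 long domains in Lenti-GFP and inside 61 and 60 in Lenti-AS. In all, 91 of 112 were divided in at least 1 library, and 18 were divided in all 4. The longest domain, on chromosome 15, was divided in 3 libraries. The same shares for the 711 other covered intervals of 500 kb to under 800 kb, which are shorter, ran from 19.5% to 27.3%, against 44.6% to 54.5% for the long domains. In the authors' balanced signal, 64 of the 112 held an inner boundary in Lenti-GFP and 63 in Lenti-AS. The label of domains without inner boundaries therefore holds in every library for 21 of the 112 only.

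Both Lenti-AS libraries had more divided domains than both Lenti-GFP libraries (60.5 ± 0.707 against 53.5 ± 4.95, SD, n = 2). The exact permutation test, two-sided here and throughout, gave p = 0.333, below which 2 against 2 libraries cannot go. The same score on summed contacts chose the domains, and the deeper Lenti-GFP libraries weighed more in that sum. The comparison of the groups is therefore a description. The order of the groups turned after thinning. With all libraries thinned to the cis contacts of the shallowest, the counts were 69 and 64 in Lenti-GFP and 62 and 60 in Lenti-AS, and the difference turned to -5.5 domains (exact permutation p = 0.333).

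Membership also moved with the scoring. When pairs with a poorly covered bin were left out of the window, 113 intervals passed, and 73 of the 112 long domains still lay to at least 80% inside one of them. After the counts had been divided by the cis totals of both bins, 175 passed and 45 of the 112 were kept. Both scorings kept 32 long domains and neither kept 26. There were 9 domains that both scorings kept and that no single library divided. These were chr1:233670001-234530000, chr4:4660001-5480000, chr4:111710001-112580000, chr7:80900001-81820000, chr8:26810001-27750000, chr8:98680001-99520000, chr9:34300001-35100000, chr15:90740001-91800000 and chr16:42860001-43990000. Their lengths ran from 800 to 1130 kb.

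Inner contact density was measured next, as the contacts between bins inside a domain at least 20 kb apart, divided by the contacts expected from the library's own mean count at each distance. Because the rule read these same contacts, the levels are a description and were not tested. The median over the long domains was 0.889 and 0.914 in Lenti-GFP and 0.892 and 0.908 in Lenti-AS. On this scale long domains were thus sparser than the mean over all numbered chromosomes at matched distance. The median of the 4417 other tested intervals, of 200 kb to under 800 kb, lay between 1.198 and 1.21. The other intervals of 500 kb to under 800 kb lay between, at 0.950 to 0.986. Single long domains ranged widely, from 0.577 to 1.4998 as a mean of the 4 libraries, with quartiles of 0.759 and 1.07. The level below 1 was not found once coverage entered the expectation. With expected counts weighted by the cis totals of both bins, the medians were 1.05 and 1.01 in Lenti-GFP and 1.03 and 1.01 in Lenti-AS, above 1 in every library. The other tested intervals then lay at 1.14 to 1.15 and those of 500 kb to under 800 kb at 1.04 to 1.07, so the long domains still had the lowest median of these sets.

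By distance, with the expectation not weighted by coverage, the values below 1 lay at short range. Between 20 and 50 kb the long domains held 0.806 and 0.832 of the expected contacts in Lenti-GFP and 0.820 and 0.835 in Lenti-AS. Between 400 and 800 kb they held 1.47 and 1.498 times the expected contacts in Lenti-GFP and 1.51 and 1.54 in Lenti-AS. From 800 kb upward the values were 1.94 and 2.03 in Lenti-GFP and 2.06 and 2.05 in Lenti-AS. Contacts inside long domains therefore fell less with distance than the average over all pairs, from a level below that average to one above it. On log axes the slope from 50 to 500 kb was -0.726 and -0.727 in Lenti-GFP and -0.727 and -0.726 in Lenti-AS, against -1.01 to -1.02 for all pairs on the same chromosomes, which include pairs across boundaries. Over 50 to 400 kb, which both kinds of interval span, the slope was -0.736 to -0.739 in long domains and -0.648 to -0.653 in the other intervals of 500 kb to under 800 kb. The other intervals thus had a shallower slope than the long domains.

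**Figure D2:**
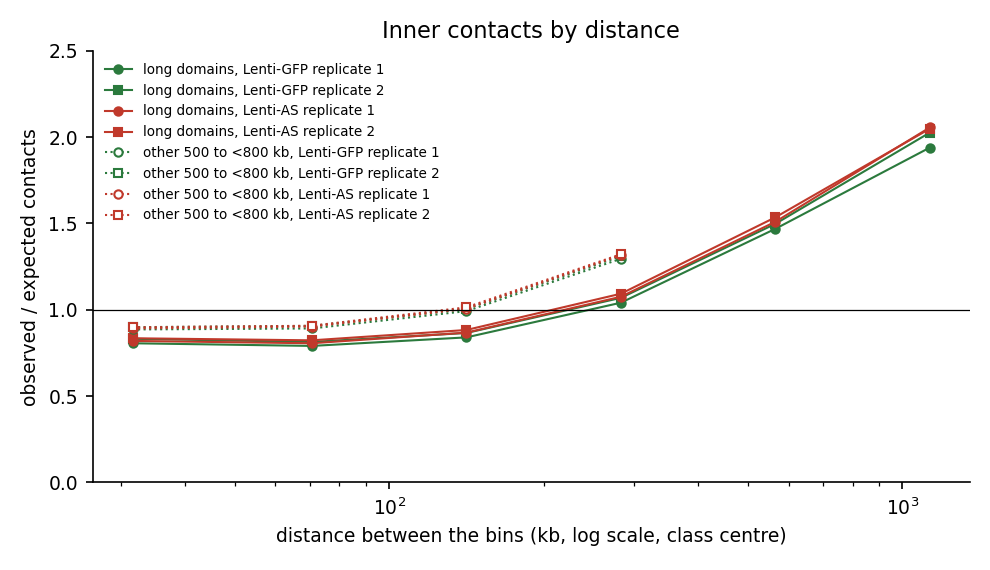
Contacts observed over expected (vertical axis, no unit) by distance between bins (kb, log scale, centre of each class), 1 line per library, for the 112 long domains (solid) and for the 711 other intervals of 500 kb to under 800 kb (dotted). Long domains lie at 0.806 to 0.835 at 20 to 50 kb, lowest at 50 to 100 kb (0.791 to 0.823) and highest beyond 800 kb (1.94 to 2.06), and the 4 libraries lie close together.

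Between the groups, the slopes overlapped, at -0.726 ± 0.000733 in Lenti-GFP against -0.727 ± 0.000726 in Lenti-AS (n = 2 and SD, exact permutation p = 0.667). The median inner density was 0.901 ± 0.0173 for Lenti-GFP against 0.90002 ± 0.0109 for Lenti-AS (exact permutation p = 1), and the groups overlapped. By distance class, both Lenti-AS libraries lay above both Lenti-GFP libraries in each class from 100 kb upward, by 0.0224 at 100 to 200 kb, 0.0292 at 200 to 400 kb, 0.0393 at 400 to 800 kb and 0.0696 beyond 800 kb (exact permutation p = 0.333 each, before adjustment over 6 classes). In the classes below 100 kb the groups overlapped. The other intervals of 500 kb to under 800 kb moved the same way, by 0.0111 and 0.0163 in the 2 classes from 100 to 400 kb.

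Single domains were compared with the quasi-likelihood test of edgeR over all 4529 tested intervals, with Benjamini-Hochberg adjustment and an adjusted p below 0.05. The group contrast was not used to choose the domains. The summed counts were not equalized for depth, so the deeper Lenti-GFP libraries weighed more in the choice. Each held 3698 to 21356 inner contacts per library. Inner contacts differed in 43 of 112 long domains, 38.4%, where 29.1% of all tested intervals passed. They were higher in Lenti-AS in 28 (25%, against 14.4% of all) and lower in 15 (13.4%, against 14.7% of all). The median log2 ratio was 0.04 over the long domains and 0.00 over all tested intervals. Among the other intervals of 500 kb to under 800 kb, 38.8% passed, with 156 higher and 120 lower, so a share of this size was also found in shorter intervals. With the weighted expectation 31 passed, 13 higher and 18 lower, where 20.2% of all tested intervals passed, 589 higher and 326 lower. The median log2 ratio was then -0.02 over the long domains and 0.006 over all. Unweighted, fewer long domains passed without Lenti-GFP replicate 1 or without Lenti-AS replicate 2, as did fewer of all tested intervals. More of these long domains were then lower than higher. Over all 112 long domains, passed or not, the median log2 ratio was 0.01 in both fits. It was 0.07 without Lenti-GFP replicate 2 and 0.06 without Lenti-AS replicate 1.

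The largest fall was that of chr4:158150001-159100000, a domain of 950 kb. Its inner density was 0.936 and 0.918 in Lenti-GFP and 0.759 and 0.765 in Lenti-AS, a log2 ratio of -0.28 (edgeR adjusted p = 3.14e-08). Next came chr1:33120001-33940000, with 0.993 and 0.965 in Lenti-GFP and 0.856 and 0.815 in Lenti-AS (log2 ratio -0.23, edgeR adjusted p = 2.97e-06). The third was chr9:117830001-118660000, with 0.887 and 0.858 against 0.752 and 0.745 (log2 ratio -0.22, edgeR adjusted p = 4.31e-06). In all 3 the groups were well apart, and the libraries of a group differed by less than 0.05. The trans share of the same domains, the percent of their contacts made with other chromosomes, was higher in both Lenti-AS libraries. In the domain on chromosome 4 it was 12.5% and 12.6% in Lenti-GFP and 14.2% in both Lenti-AS libraries. Their trans contacts did not pass the test (edgeR adjusted p = 0.317, 0.865 and 0.598).

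The largest rises were smaller. The domain chr1:10190001-11270000 went from 0.986 and 1.03 in Lenti-GFP to 1.13 and 1.17 in Lenti-AS (log2 ratio 0.20, edgeR adjusted p = 9.87e-06). The domain chr4:38640001-39630000 went from 1.22 and 1.26 to 1.37 and 1.41 (log2 ratio 0.17, edgeR adjusted p = 6.26e-05). The domain chr1:27190001-28190000, in which no library placed an inner boundary, went from 1.24 and 1.32 to 1.398 and 1.46 (log2 ratio 0.16, edgeR adjusted p = 0.000277). The insulation score at its left boundary was -11.5, against a median of -0.81 over the ends of the long domains. The lowest score inside this domain was also -11.5, and 90.9% of its bins were covered. Whether a gap in coverage made this boundary was not tested. All 3 had inner densities above the median of the long domains. Among the 7 longest, chr2:84750001-85920000 had the largest fall, from 0.667 and 0.677 to 0.589 and 0.580 (log2 ratio -0.20, edgeR adjusted p = 7.34e-06).

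The corners were enriched. Contacts between the first 5 and the last 5 bins of a domain, summed over the 109 long domains with covered corner bins, were 2.34 and 2.36 times the expected number in Lenti-GFP and 2.40 and 2.29 times in Lenti-AS. At the same distance, with both anchors moved together by 200 kb to either side, so that 1 of them lay outside the domain and the pairs crossed a boundary, the ratio was 1.28 and 1.32 in Lenti-GFP and 1.29 and 1.37 in Lenti-AS. The corner thus exceeded these crossing pairs, summed over all long domains, by 1.83 and 1.79 times in Lenti-GFP and 1.87 and 1.67 times in Lenti-AS. The rule placed the ends where contacts across them were few, so this excess is a description. Pairs inside the long domains at 800 kb or more, which include corners, already held 1.94 to 2.06 times the expected number, against 2.29 to 2.40 at the corner. The excess over crossing pairs was larger in the other intervals of 500 kb to under 800 kb, at 2.91 to 2.96 times. Single domains were very unequal, from 0.367 to 15.3 with a median of 1.885 as a mean of the libraries, and counts were small, with a median of 10 to 16 corner contacts per library. One strong corner was that of chr4:38640001-39630000, with 85 and 119 contacts in Lenti-GFP and 79 and 65 in Lenti-AS, 10.7 to 12.9 times the expected number.

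**Figure D3:**
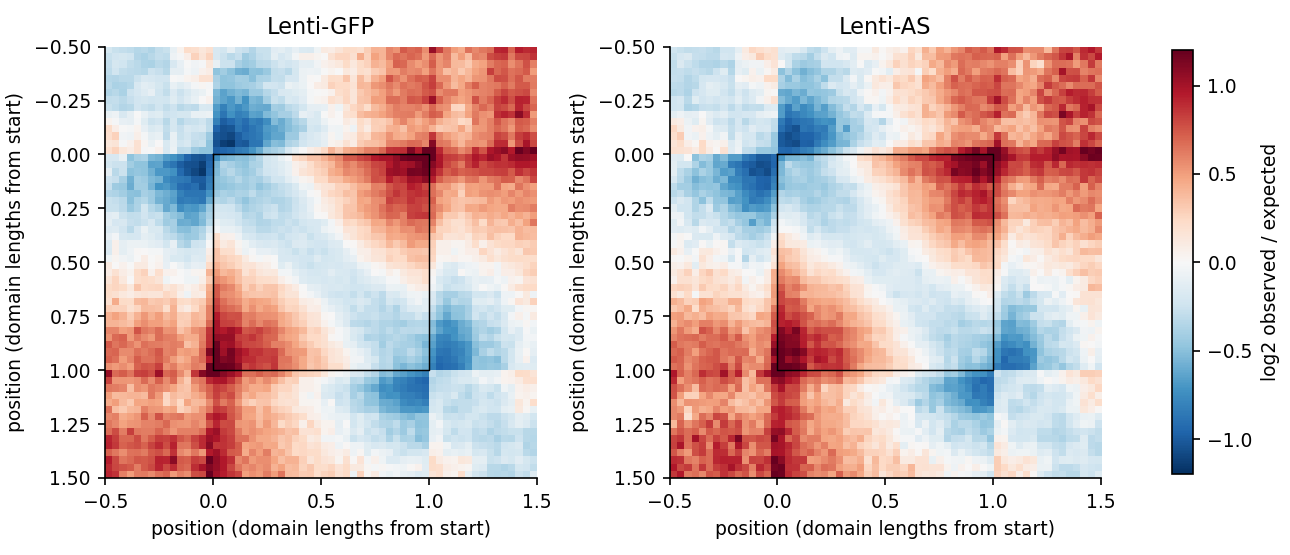
Average contact map of the long domains in each group, log2 of observed over expected contacts (colour), with each domain and its flanks stretched to the same size and drawn along both axes in domain lengths (the box is the domain, from 0 to 1). The inner corner is enriched, with a mean of 2.07 in Lenti-GFP and 2.11 in Lenti-AS next to the corner, and contacts just across either end are depleted, with a mean of 0.542 and 0.552. Pairs from just outside 1 end to the inside of the far end have a mean of 1.63 in Lenti-GFP and 1.68 in Lenti-AS.

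Between the groups the summed corner ratio was 2.35 ± 0.0183 for Lenti-GFP against 2.35 ± 0.0823 for Lenti-AS (n = 2 and SD, exact permutation p = 1), and the groups overlapped. Of the 72 long domains with a mean of at least 10 corner contacts, 0 passed the edgeR test, as against 0.0463% of the 4324 intervals tested, 6 of the 72 had an unadjusted p below 0.05, as did 8.46% of all tested, and DESeq2 called 0 with 1 below an unadjusted 0.05. The lowest p for a decrease belonged to chr9:117830001-118660000, which had 27 and 30 corner contacts in Lenti-GFP and 8 and 6 in Lenti-AS. Its corner held 4.33 and 4.12 times the expected contacts in Lenti-GFP and 1.67 and 1.32 times in Lenti-AS (log2 ratio -1.48, edgeR adjusted p = 0.0962), and it did not pass. Its inner contacts were among the 3 largest falls above. In the other direction the lowest p belonged to chr4:20240001-21050000, with 33 and 28 contacts in Lenti-GFP and 31 and 30 in Lenti-AS, or 3.09 and 2.24 against 3.77 and 3.85 times the expected number (edgeR adjusted p = 0.571). In counts simulated over all 4324 intervals, most of them shorter, edgeR recovered 9.5% of the smallest corner changes simulated, which were below 1.5-fold, 63.5% of 1.5-fold and 93.5% of 2-fold corner changes. Recovery in the long domains alone was not computed.

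The rule placed the ends of the domains where contacts across them were few in the same libraries, so that depletion there is a description. These contacts, 20 kb to 1 Mb apart, were depleted to 0.823 and 0.843 of the expected number in Lenti-GFP and 0.845 and 0.859 in Lenti-AS. The other tested intervals lay at 0.840 to 0.844. Both Lenti-AS libraries lay above both Lenti-GFP libraries, by 0.0195 (0.833 ± 0.0142 against 0.852 ± 0.0103, SD, n = 2, exact permutation p = 0.333). In the sum that placed the ends, the deeper Lenti-GFP libraries weighed more, so this difference is a description too. With both bins divided by their cis totals the order was lost, and the difference was -0.00521. The long domains then lay at 0.933 to 0.953. The other tested intervals lay at 0.810 to 0.815, and those of 500 kb to under 800 kb at 0.884 to 0.893. On that scale the long domains were thus less depleted than the other sets.

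Nearly all long domains lay on one side of the compartment eigenvector. Their mean eigenvector was negative in all 4 libraries in 107 of 112, or 95.5%, positive in all 4 in 4, and of mixed sign in 1. Of the other tested intervals 47.6% were negative in all 4 libraries, as were 76.1% of those of 500 kb to under 800 kb, and 56.2% to 57.7% of all bins of 100 kb were negative. The share of negative intervals was thus higher in the longer sets. The sign was set so that the eigenvector correlates positively with trans contacts over the genome, a weak relation, and the sides were not named A or B. When each chromosome's sign was set by its own trans contacts, 99 of the 112 (88.4%) were negative in every library, against 45.1% of the other tested intervals. The authors' balanced signal placed 95.5% of the long domains on the negative side in both groups.

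The lowest eigenvectors belonged to chr17:57970001-59050000, at -1.90 and -1.84 in Lenti-GFP and -1.999 and -2.04 in Lenti-AS, and to chr8:26810001-27750000, at -1.87 and -1.84 against -1.91 and -1.91. Chromosome 17 took the other sign in all 4 libraries when set by its own trans contacts, and its domain then had the highest eigenvector of all 112, at 1.90 and 1.84 in Lenti-GFP and 1.999 and 2.04 in Lenti-AS. The domain on chromosome 8 kept its sign and was then the lowest. With aligned signs the highest was that of chr2:141430001-142230000, with 1.46 in both Lenti-GFP libraries and 1.37 and 1.31 in Lenti-AS. This domain of 800 kb also had an inner density of 1.49 to 1.51 in every library and the strong corner of 135 and 165 contacts in Lenti-GFP and 101 and 102 in Lenti-AS, 12.05 to 12.96 times the expected number. The next highest was chr3:134690001-135540000, with 0.754 and 0.764 in Lenti-GFP and 0.696 and 0.673 in Lenti-AS. Over the 112 domains the inner density went with the eigenvector (Pearson r = 0.78), but with the weighted expectation r was -0.09. Over 109 domains the corner ratio went with the eigenvector too (r = 0.51). With the sign of each chromosome set on its own, r was 0.64 for inner density, 0.15 for weighted inner density and 0.32 for the corner ratio. The points share libraries, depth and contacts, and these correlations across domains are a description. The 5 domains of positive mean eigenvector had a median inner density of 1.26 and a median corner ratio of 4.49, where the 107 others had 0.888 and 1.86. With the weighted expectation the order of inner density turned, to 0.894 against 1.03. The set depended on the signs. Set per chromosome, 13 domains had a positive mean eigenvector, with a median inner density of 1.08 against 0.874 in the other 99. Their weighted inner density was 1.15 against 1.01 and their corner ratio 1.996 against 1.86. Signs set this way differed between libraries on chromosomes 10 and 19. The mean over libraries therefore names no side for domains there, in these medians and in the correlations above.

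**Figure D4:**
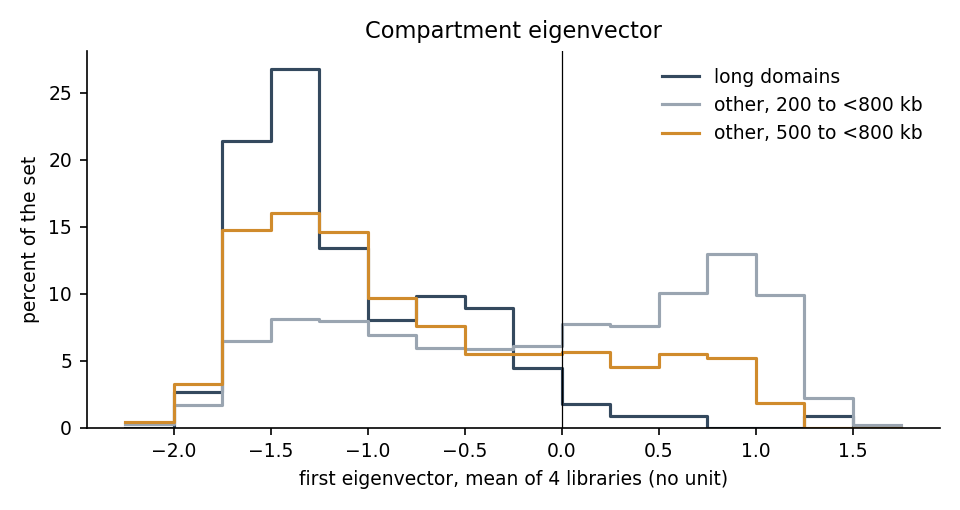
Percent of each set (vertical axis) by the mean first eigenvector over the 4 libraries (horizontal axis, no unit, classes of 0.25), for the 112 long domains and for the other tested intervals of 200 and 500 kb to under 800 kb. The long domains pile up below 0, where 107 of 112 lie.

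The eigenvector of the long domains was lower in both Lenti-AS libraries, at -1.09 in each, than in both Lenti-GFP libraries, at -1.05 in each (difference -0.0417, SD 0.00211 and 0.000175, n = 2, exact permutation p = 0.333). The other tested intervals fell by more, from -0.0829 and -0.0856 to -0.141 and -0.143, so the shift was not particular to long domains. With the sign of each chromosome set by its own trans contacts the difference was 0.0405. Under that setting chromosome 19 took the other sign in the Lenti-AS libraries only. Chromosome 10 took it in all libraries except Lenti-GFP replicate 1. Opposite signs were thus compared between the groups there, and the value shows no reversal of the shift. By limma, 0 of 112 long domains passed at an adjusted p below 0.05, against 1.04% of all tested intervals, and 19 of 112 had an unadjusted p below 0.05, as did 26% of all tested intervals. After quantile normalization of the eigenvectors, the long domains had a median difference of -0.00224.

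The share of trans contacts was higher in Lenti-AS. That share also counts cis contacts, which the rule used, while the rule did not use trans contacts. They made up 12.4% and 12.6% of the contacts of the long domains in Lenti-GFP and 13.3% and 13.1% in Lenti-AS, a difference of 0.724 percentage points (12.5% ± 0.102 against 13.2% ± 0.148, SD, n = 2, exact permutation p = 0.333). Both Lenti-AS libraries lay above both Lenti-GFP libraries. In the other tested intervals the values were 12.7% and 12.8% against 13.1% and 13.02%, a difference of 0.322 percentage points. The long domains minus the other intervals gave -0.252 and -0.187 percentage points in Lenti-GFP and 0.252 and 0.114 in Lenti-AS. That change of the gap, 0.402 percentage points, again had an exact permutation p of 0.333. Against the other intervals of 500 kb to under 800 kb, whose share rose by 0.563 percentage points, the gap changed by 0.161 (exact permutation p = 0.333). Whole libraries held 12.6% and 12.8% trans contacts in Lenti-GFP and 13.001% and 12.9% in Lenti-AS, with each contact counted once. In the shares of the domains a contact counts at every bin it touches, so these levels cannot be compared with the shares. The part of the whole-library difference and of the lower depth of Lenti-AS in the result was not tested.

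Domain by domain, trans contacts were higher in Lenti-AS in 57 of 112 long domains (50.9%), where 17.4% of all tested intervals were, and lower in 0, where 11.1% were (edgeR with TMM factors, adjusted p below 0.05). At an unadjusted p below 0.05, 68 were higher and 0 lower, where 39.7% of all tested intervals passed in either direction. The median log2 ratio was 0.09 over the long domains and 0.00 over all tested intervals, and 101 of 112 ratios were above 0. In 92 of 112 long domains (82.1%) the trans share was higher in both Lenti-AS libraries than in both Lenti-GFP libraries, as it was in 51.8% of all tested intervals, in 69.2% of the other intervals of 500 kb to under 800 kb and in 77.4% of other intervals with a negative eigenvector in every library. DESeq2 called 17 of the 112, all higher, where 3.47% of all tested intervals passed. Far fewer long domains passed without either of the Lenti-AS libraries, as did far fewer of all tested intervals. In those fits the spread within groups came from the Lenti-GFP pair alone. The fall in calls therefore does not show on which libraries they rested. The median log2 ratio over the long domains was 0.09 and 0.08 without Lenti-AS replicates 1 and 2. Without Lenti-GFP replicates 1 and 2 it was 0.06 and 0.11.

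Trans calls in the other intervals also went with the side of the eigenvector. Among other intervals with a negative eigenvector in every library, trans contacts were higher in Lenti-AS in 33.8% and lower in 2.71%, and among those with a positive one they were higher in 0.747% and lower in 20.3%. Other intervals of 500 kb to under 800 kb were higher in 37.7% and lower in 3.66%. The 541 of these with a negative eigenvector in every library were higher in 48.6% and lower in 1.29%, shares close to those of the long domains, and in 82.1% of them both Lenti-AS libraries had the higher trans share. The 1562 shorter ones of that side were higher in 28.7% and lower in 3.20%. Of the long domains, 56 of the 107 with a negative mean eigenvector rose, as did 1 of the 5 with a positive one. With signs set per chromosome, 34.7% of the other negative intervals were higher and 3.11% lower, and 1.49% of the positive ones were higher and 19.3% lower. The 487 negative ones of 500 kb to under 800 kb were then higher in 52.4% and lower in 1.23%. Of the long domains, 55 of 99 with a negative mean and 2 of 13 with a positive mean rose. Those means mix signs on chromosomes 10 and 19. The differences between these sets were not tested.

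**Figure D5:**
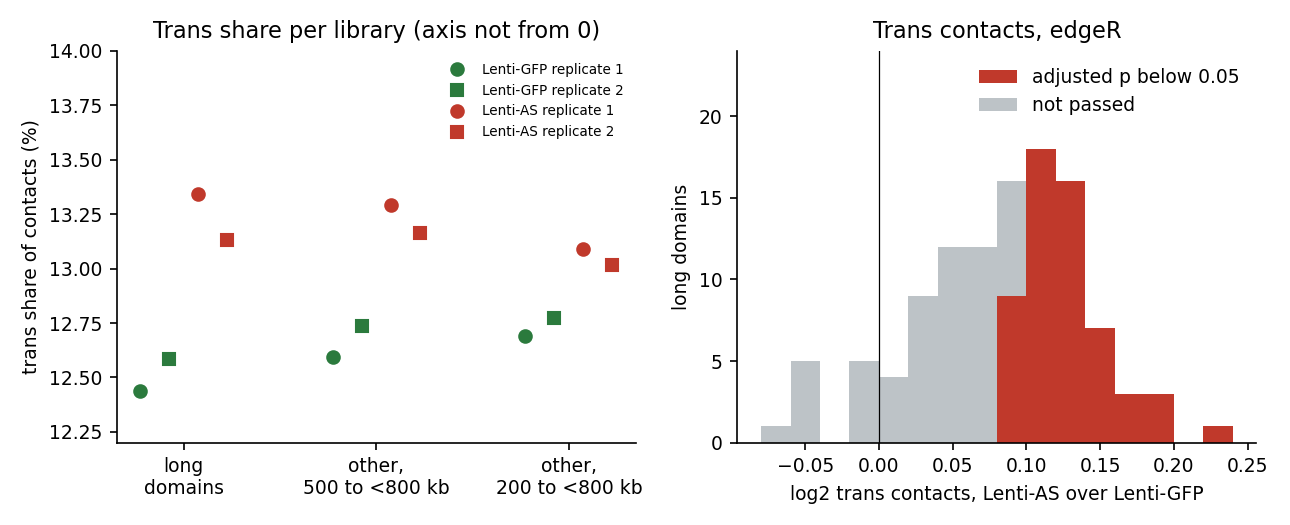
Left, percent of contacts made with other chromosomes in each library (axis not from 0), for the long domains and for the other tested intervals; in the long domains Lenti-GFP lies at 12.4 and 12.6 and Lenti-AS at 13.3 and 13.1. Right, number of long domains by the log2 ratio of trans contacts, Lenti-AS over Lenti-GFP, with the 57 that passed the edgeR test in red, all of them above 0.

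The 3 domains with the largest rise in trans contacts were picked after their values were seen. In chr2:215010001-216330000, the second longest, the trans share was 9.52% and 9.58% in Lenti-GFP and 10.8% and 10.4% in Lenti-AS (log2 ratio 0.23, edgeR adjusted p = 3.68e-08). In chr3:88670001-89510000 it was 9.78% and 9.90% against 11.03% and 10.7% (log2 ratio 0.20, edgeR adjusted p = 1.88e-06). In chr9:57890001-58720000 it was 12.03% and 12.4% against 13.8% and 13.2% (log2 ratio 0.19, edgeR adjusted p = 5.89e-06). The groups did not overlap in any of these. The longest domain, on chromosome 15, rose too, from 14.8% and 15.1% to 16.4% and 16.1% (log2 ratio 0.12, edgeR adjusted p = 0.0126). At chr13:6640001-7820000, where the share is high in every library, it was 20.4% and 20.8% in Lenti-GFP and 21.3% and 21.1% in Lenti-AS, and the test was not passed (log2 ratio 0.08, edgeR adjusted p = 0.129).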

How the data were processed

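Per the labels and methods, Hi-C libraries were made with the Arima kit. The submitters' processing notes name HiC-Pro and the build rn6. The authors deposited 1 matrix of raw contact counts for each library (10 kb bins, no normalization), and balanced signal of the merged libraries of each group at 10 and 100 kb. The balanced signal was used for an alternative call of boundaries and to align eigenvector signs between chromosomes. Signs were to correlate positively with trans contacts. Set chromosome by chromosome they differed between libraries, so that aligned signs were taken instead, a choice made after seeing the data, with signs set per chromosome as the alternative.

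Bins under 0.25 of the median cis contacts were left out of the inner, corner, crossing and trans counts. The main score that placed the boundaries used all bins. Intervals of 200 kb or longer were tested with edgeR 4.0.16 (mean count of at least 10, offsets from distance or TMM), DESeq2 1.42.0 and limma 3.58.1, Benjamini-Hochberg over all intervals. Eigenvectors came from 100 kb contacts of each library after balancing. The tests were tried on simulated data. Named domains are the longest, the shortest, those with the largest inner or lowest-p corner changes, and the extreme eigenvectors. Those with the largest trans rises were added after their values were seen. The members and lists were chosen with earlier results of these data known.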

Additional observations from a re-analysis of the deposited data

How the results depend on the processing

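The number of long domains moved by over 1.5 times with every alternative tried except leaving out poorly covered pairs (113), and the coverage minimum was not varied. It was 0 with a window of 10 bins and 509 with 40, 1 at a prominence of 0.1 and 267 at 0.3, 433 at a minimum of 600 kb and 27 at 1000 kb, and 175 after division by cis totals. Replicate numbers do not pair the libraries by any label. Deviations of same-numbered libraries correlated at 0.375 for inner, -0.00133 for corner and 0.103 for trans contacts, and with a replicate block 75 inner and 72 trans calls were made, with 0 for corners and eigenvectors. DESeq2 called 17 in trans contacts and 30 in inner contacts. Leaving out 1 library at a time gave 16 to 45 inner calls, 3 to 90 trans calls and 0 to 1 eigenvector calls, and signs set per chromosome gave 2. Differences (Lenti-AS minus Lenti-GFP) without 1 library ran from -0.0136 to 0.0109 in inner density, from -0.000864 to 0.000172 in slope, from -0.0613 to 0.0551 in corner ratio, from 0.00952 to 0.0295 in crossing contacts, from -0.0432 to -0.0402 in eigenvector, from 0.6196 to 0.829 in trans share and from 3.5 to 10.5 in divided domains. With members called without poorly covered pairs, inner density and slope reversed to 0.0146 and 0.00111. With members of 1000 kb or longer they were 0.0457 and 0.00827, and the corner difference 0.235, which with 10 bins at each end was 0.0419. Crossing contacts reversed to -0.00521 after division by cis totals, and divided domains to -5.5 after thinning and -1 in the balanced signal. The eigenvector difference was 0.0405 with signs set per chromosome, which compared opposite signs between the groups on chromosomes 10 and 19. The causes of the other changes were not tested. Weighted expected counts, the alignment of eigenvector signs and divided domains without 1 library were chosen after seeing the data. Corner counts limit small changes, and 2 libraries per group allow no exact permutation p below 0.333.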
